A study of Mus musculus with 6 samples.

Results

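Chemokines are small secreted proteins that steer the migration of leukocytes, and chemokine receptors are the G protein-coupled receptors that read them. The 50 genes described here are all those, of 18194 on the array, whose symbol begins with a chemokine or chemokine receptor stem (Ccl, Cxcl, Cx3cl, Xcl, Ccr, Cxcr, Cx3cr or Xcr) followed by a digit and which have a probe set annotated to that gene alone. They comprised 33 ligands read by 51 probe sets and 17 receptors read by 27 probe sets, of 34958 probe sets with 1 gene symbol. A further 4 probe sets of chemokine genes carried several symbols and were not used.

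RNA came from colon and liver of male C57BL6/J mice, 7 weeks old, and was hybridised to Affymetrix arrays that cover the mouse transcriptome. Control mice (CON) received a basal diet and plain water. The DSS group received the basal diet and, after 7 days of plain water, 1.5% dextran sodium sulphate in the drinking water for 10 days. This sulphated polysaccharide damages the lining of the colon and is the standard chemical trigger of murine colitis. The DSSPAR group was kept on the basal diet supplemented with 2% parsley from the outset and drank 1.5% dextran sodium sulphate for 9 days after the same 7 days of plain water, so the diet and the stated length of exposure differed together. Each of the 6 arrays held RNA pooled from 7 mice, with a single array for each group and tissue. Differences are thus between a pair of pools, without replicates and without p-values. The number of arrays limits the precision.

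Most chemokines fall into the CC class, named Ccl, or the CXC class, named Cxcl. Many are barely transcribed at rest and are induced by cytokines such as interleukin-1, tumour necrosis factor and interferon gamma, whereas others are made constantly and hold lymphocytes in their niches. A ligand often has several receptors and a receptor several ligands. In colitis the family is known for drawing neutrophils and monocytes into the mucosa, and in liver it governs the traffic of monocytes and lymphocytes through the sinusoids.

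Values are MAS5 intensities on a linear scale. The median over the 3 arrays of a tissue served as a floor, 25.1 in colon and 96.6 in liver. A gene was counted as measured in a comparison when 1 or both arrays exceeded the floor, and an array below the floor was raised to it before a ratio was taken, so a fold against such an array is a lower bound, written "at least". Intensities of different genes are not comparable, because probes differ in brightness. Summed intensities of a gene list take in every listed gene on the array, also those under the floor. Where 2 probe sets read 1 gene, the robust SD of the gap between their log2 ratios was 0.36 to 0.42 in colon. In liver it was 0.48 to 0.57. This gives the scale of probe noise for a typical gene and leaves out differences between pools. Values were floored first, which can narrow a gap, and single members differed by more. In liver DSS over CON the 2 probe sets of Cxcl14 gave 3.64 and 1.1. Probe sets of olfactory receptors, genes best known from the nasal epithelium, lay above the floor for 0 to 2.27% in colon and for 15.9 to 27.3% in liver, so liver values near the floor carry little information. All 11 colon epithelium markers were above the floor in colon and all 7 hepatocyte markers on the array were above it in liver. In whole tissue, fewer cells of a type and less RNA per cell cannot be told apart.

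The upstream sequences of 5 CXC ligand genes on chromosome 5 are shown first, because Cxcl1, Cxcl2, Cxcl9 and Cxcl10 were among the members with the largest ratios in colon and are textbook targets of NF-kB or of interferon regulatory factors. Each run reaches from 250 bases before to 50 bases after the RefSeq transcription start, on the gene's own strand, in build GRCm38.p6. The intervals were chr5:90890995-90891294 (plus strand) for Cxcl1, chr5:90903649-90903948 (plus strand) for Cxcl2, chr5:90785851-90786150 (plus strand) for Cxcl3, chr5:92328030-92328329 (minus strand) for Cxcl9 and chr5:92348840-92349139 (minus strand) for Cxcl10. Capitals mark matches, on either strand, to an NF-kB-like motif (GGGANNTTC) or an IRF-like motif (GAAANNGAA).
Cxcl1: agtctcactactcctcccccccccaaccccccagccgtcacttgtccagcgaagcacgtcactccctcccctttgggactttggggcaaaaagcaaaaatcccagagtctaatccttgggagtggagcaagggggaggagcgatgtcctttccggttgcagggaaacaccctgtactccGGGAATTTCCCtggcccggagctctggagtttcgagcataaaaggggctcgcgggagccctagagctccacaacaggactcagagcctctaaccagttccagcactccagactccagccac
Cxcl2: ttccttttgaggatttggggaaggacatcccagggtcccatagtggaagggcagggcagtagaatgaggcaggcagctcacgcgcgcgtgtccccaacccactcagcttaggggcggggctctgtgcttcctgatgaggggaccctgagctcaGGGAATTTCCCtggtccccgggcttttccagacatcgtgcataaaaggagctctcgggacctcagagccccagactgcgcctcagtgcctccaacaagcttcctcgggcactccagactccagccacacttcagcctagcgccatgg
Cxcl3: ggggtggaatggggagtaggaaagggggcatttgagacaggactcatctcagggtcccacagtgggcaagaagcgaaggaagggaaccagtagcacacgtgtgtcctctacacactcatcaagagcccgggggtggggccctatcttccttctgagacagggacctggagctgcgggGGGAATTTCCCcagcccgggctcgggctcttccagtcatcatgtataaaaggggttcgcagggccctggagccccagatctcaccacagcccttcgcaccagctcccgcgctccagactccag
Cxcl9: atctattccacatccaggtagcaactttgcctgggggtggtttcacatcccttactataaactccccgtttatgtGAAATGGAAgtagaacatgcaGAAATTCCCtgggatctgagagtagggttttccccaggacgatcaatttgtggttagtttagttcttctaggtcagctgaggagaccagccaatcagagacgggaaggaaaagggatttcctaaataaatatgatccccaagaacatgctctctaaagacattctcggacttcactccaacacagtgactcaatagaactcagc
Cxcl10: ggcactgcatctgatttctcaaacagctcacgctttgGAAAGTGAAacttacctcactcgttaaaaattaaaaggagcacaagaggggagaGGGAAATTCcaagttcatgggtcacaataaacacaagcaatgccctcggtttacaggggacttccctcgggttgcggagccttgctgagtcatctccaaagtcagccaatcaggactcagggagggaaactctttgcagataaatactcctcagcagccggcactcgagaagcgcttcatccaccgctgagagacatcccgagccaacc

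Cxcl1, Cxcl2 and Cxcl3 held the same run of 11 bases, GGGAATTTCCC, in which a match on each strand overlaps. The overlapping matches began 71 and 69 bases before the start in Cxcl1, 97 and 95 in Cxcl2, and 73 and 71 in Cxcl3. This run occurred in 14 of 32851 promoters of the same length (0.0426%). Of the 37 members that could be searched, only Cxcl1, Cxcl2 and Cxcl3 were among them. Cxcl9 and Cxcl10 each held 1 NF-kB-like match, 154 and 159 bases before the start, and 1 IRF-like match, 175 and 213 bases before it.

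Of the 50 members, 37 were found in the promoter table, with 41 promoters. The 13 others were not searched. They included Cxcl5, Ccl2, Ccl7, Ccl11, Cxcl11 and Cxcl16, all at least 2-fold higher in colon DSS than in CON. The NF-kB-like motif occurred in 8 of the 41 member promoters (19.5%), against 3.94% of all 32851 promoters. The genes were Cxcl1, Cxcl2, Cxcl3, Cxcl9, Cxcl10, Ccl1, Ccr3 and Cxcr2, of which Ccl1, Ccr3 and Cxcr2 stayed under the floor on every colon array. The IRF-like motif occurred in 6 (14.6%), against 8.56% of all. An AP-1-like motif (TGANTCA) occurred in 8 (19.5%), against 7.81%, and a TATA-like motif (TATAAA) in 12 (29.3%), against 13.6%. The promoters of Ccl8 and Cxcl13 held a TATA-like match and none of the other motifs searched, although both genes had large ratios in colon. A match is a string of letters and does not show that a factor binds there.

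In colon, chemokine ligands were far higher in DSS than in CON, with fewer receptors above the floor to set beside them. Of 36 measured members, 18 were at least 2-fold higher in DSS (50.0%), against 5.18% of all 11952 genes measured. None was 2-fold lower, against 1.97% of all genes. With the floor at the 75th percentile the count higher was 8, beside 3.68% of all genes then measured. The median log2 ratio of the members was 0.96 and that of all genes 0.042. By role, 16 of 28 measured ligands and 2 of 8 measured receptors were at least 2-fold higher. Of the 7 higher members with more than 1 measured probe set, all 7 had those probe sets on the same side.

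The neutrophil-attracting CXC ligands, which signal through Cxcr2, were under the floor in CON and above it in DSS. Cxcl5, made largely by epithelial cells, read 12.5 in CON, 419.0 in DSS and 158.0 in DSSPAR and was at least 16.7-fold higher in DSS than in CON. Cxcl1 read 15.5, 240.0 and 95.4 in the same order and was at least 9.57-fold higher. Cxcl2 read 4.93, 183.9 and 141.8 and was at least 7.33-fold higher. All 3 were below the floor in CON, and DSSPAR lay between CON and DSS in each. Cxcl3 read 4.74, 44.2 and 23.9, so only DSS was above the floor, and its ratio of at least 1.76-fold fell short of 2-fold. The other 2 probe sets of Cxcl1 gave DSS over CON log2 ratios of at least 3.57 and of 1.94, beside at least 3.26 for the set used.

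The receptor Cxcr2, which neutrophils carry, was under the floor on every colon array, at 3.04 in CON, 19.2 in DSS and 1.91 in DSSPAR, so its 4 paired ligands had no measured receptor. Neutrophil markers were measured in part. S100a8, which encodes a calcium-binding protein abundant in neutrophils and monocytes, read 18.5, 2056.6 and 1423.1, and its partner S100a9 read 9.96, 839.0 and 922.8. Of 9 neutrophil markers on the array 5 were measured in DSS against CON and only these 2 were at least 2-fold higher. The summed intensity of the markers was 119.8 in CON, 3074.7 in DSS and 2451.8 in DSSPAR. S100a8 and S100a9 made up most of the sum in DSS and DSSPAR. The granule genes Camp, Mpo and Elane were under the floor on every colon array. The part of neutrophils in the ligand values was not tested.

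The interferon-inducible ligands of Cxcr3, a receptor of effector T cells and natural killer cells, formed another group with large ratios. Cxcl9 read 23.1 in CON, 492.9 in DSS and 184.1 in DSSPAR, at least 19.6-fold higher in DSS than in CON. Cxcl10 read 23.1, 221.4 and 103.5, at least 8.82-fold higher. Cxcl11 read 18.9, 56.0 and 53.1, at least 2.23-fold higher, although RefSeq lists this gene as a transcribed pseudogene in the C57BL/6J reference. Their receptor Cxcr3 read 29.2, 38.2 and 38.2, which is a 1.31-fold difference close to the floor. Thus all 3 ligands passed 2-fold and the receptor did not. T cell markers were also near the floor, with 2 of 7 measured and neither 2-fold higher in DSS. All 7 together summed to 119.4 in CON, 124.8 in DSS and 174.8 in DSSPAR. The second probe set of Cxcl9 gave a log2 ratio of at least 1.41, beside at least 4.30 for the set used. As both are lower bounds, the 2 cannot be ranked.

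Monocyte-attracting CC ligands were the group in which ligand and receptor were both higher. Ccl2, the main ligand of Ccr2 on inflammatory monocytes, read 9.8 in CON, 141.5 in DSS and 43.5 in DSSPAR, at least 5.64-fold higher in DSS than in CON. Ccl12 read 22.6, 112.9 and 77.2, at least 4.5-fold higher, and Ccl7, a ligand of Ccr1 and Ccr2, read 8.02, 82.2 and 20.6, at least 3.28-fold higher. Ccr2 itself read 50.2, 168.2 and 131.0, a 3.35-fold difference with both arrays above the floor. The remaining 3 probe sets of Ccr2 were dimmer and gave log2 ratios of 0.36 to 0.61, on the same side as the 1.75 of the brightest. These 3 are lower bounds, because CON was under the floor, at 8.49 to 21.2. With the mean over the 4 probe sets Ccr2 fell short of 2-fold, at 0.78, which is then a lower bound too.

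Ccr1, a receptor of monocytes and neutrophils, read 60.9, 158.2 and 123.9 and was 2.6-fold higher in DSS. Of its paired ligands, Ccl9 read 125.3, 264.5 and 250.2, a 2.11-fold difference, and Ccl7 was given above. Ccl3 read 0.782, 36.5 and 50.8, at least 1.45-fold higher in DSS. Ccl5, made by activated T cells, read 111.0, 132.4 and 103.8, and Ccl6 read 1698.4, 1588.9 and 2247.6, so neither differed by 2-fold between DSS and CON. Markers of macrophages and monocytes were also higher in DSS than in CON. All 12 were measured and 10 were at least 2-fold higher in DSS, with a summed intensity of 1857.1 in CON, 6752.5 in DSS and 5774.5 in DSSPAR. Among them, the complement gene C1qa read 169.4, 789.4 and 651.6 and the lysozyme gene Lyz2 641.9, 2734.5 and 2344.8. Their part in the chemokine values was not tested.

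Ccl8 had the largest ratio in colon with both arrays above the floor. It read 101.6 in CON, 1880.6 in DSS and 1988.8 in DSSPAR, 18.5-fold higher in DSS than in CON. In mice Ccl8 is a ligand of Ccr8, which was under the floor throughout, at 0.983 to 1.69. Ccl11, the eosinophil attractant, read 39.9, 161.8 and 88.8, 4.05-fold higher in DSS, while its receptor Ccr3 stayed between 1.03 and 1.96. None of the 4 eosinophil markers was above the floor on any array of either tissue.

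Among the ligands that place lymphocytes, Cxcl13 differed widely between the groups. Cxcl13, which draws B cells into follicles through Cxcr5, read 106.2 in CON, 1331.5 in DSS and 552.5 in DSSPAR, 12.5-fold higher in DSS than in CON. Its second probe set gave 7.74-fold. Cxcr5 was under the floor, at 19.3, 24.9 and 12.5. Of 6 B cell and follicle markers on the array 4 were measured and 2 were at least 2-fold higher in DSS. These were Ms4a1, which encodes CD20, at 83.3, 185.0 and 178.9, and the complement receptor gene Cr2, at 32.7, 74.4 and 40.2. The markers summed to 209.6 in CON, 413.9 in DSS and 372.9 in DSSPAR, and their part in the Cxcl13 value was not tested.

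Ccl20, the epithelial ligand of Ccr6, read 12.8 in CON, 136.4 in DSS and 189.4 in DSSPAR, at least 5.44-fold higher in DSS. Ccr6, found on B cells and some T cells, read 39.6, 48.8 and 42.5 and differed by 1.23-fold. Cxcl12, a constitutive stromal ligand, read 342.7, 784.9 and 575.9, 2.29-fold higher in DSS, with its receptor Cxcr4 under the floor at 11.6, 17.8 and 18.5. Cxcl16, a membrane-anchored ligand, read 62.1, 149.2 and 125.0, 2.4-fold higher, and its receptor Cxcr6 read 14.3, 45.0 and 46.4, at least 1.79-fold higher. Cxcr4 thus had no measured ratio, and the Cxcr6 ratio is a lower bound that may exceed 2-fold.

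The 18 measured members short of 2-fold in colon DSS against CON ranged from a log2 ratio of -0.46 for Ccl27a to 0.84 for Cxcr6. They included the constitutive epithelial ligands Ccl25 at -0.33 and Ccl28 at 0.48, the membrane-bound Cx3cl1 at -0.15 and its receptor Cx3cr1 at 0.67. Members never above the floor in colon were the ligands Ccl1, Ccl22, Ccl24 and Cxcl15 and the receptors Ccr1l1, Ccr3, Ccr4, Ccr8, Ccr9, Cxcr2, Cxcr4, Cxcr5 and Xcr1. Cxcl17 was above it in DSSPAR alone, at 34.9.

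**Figure D1:**
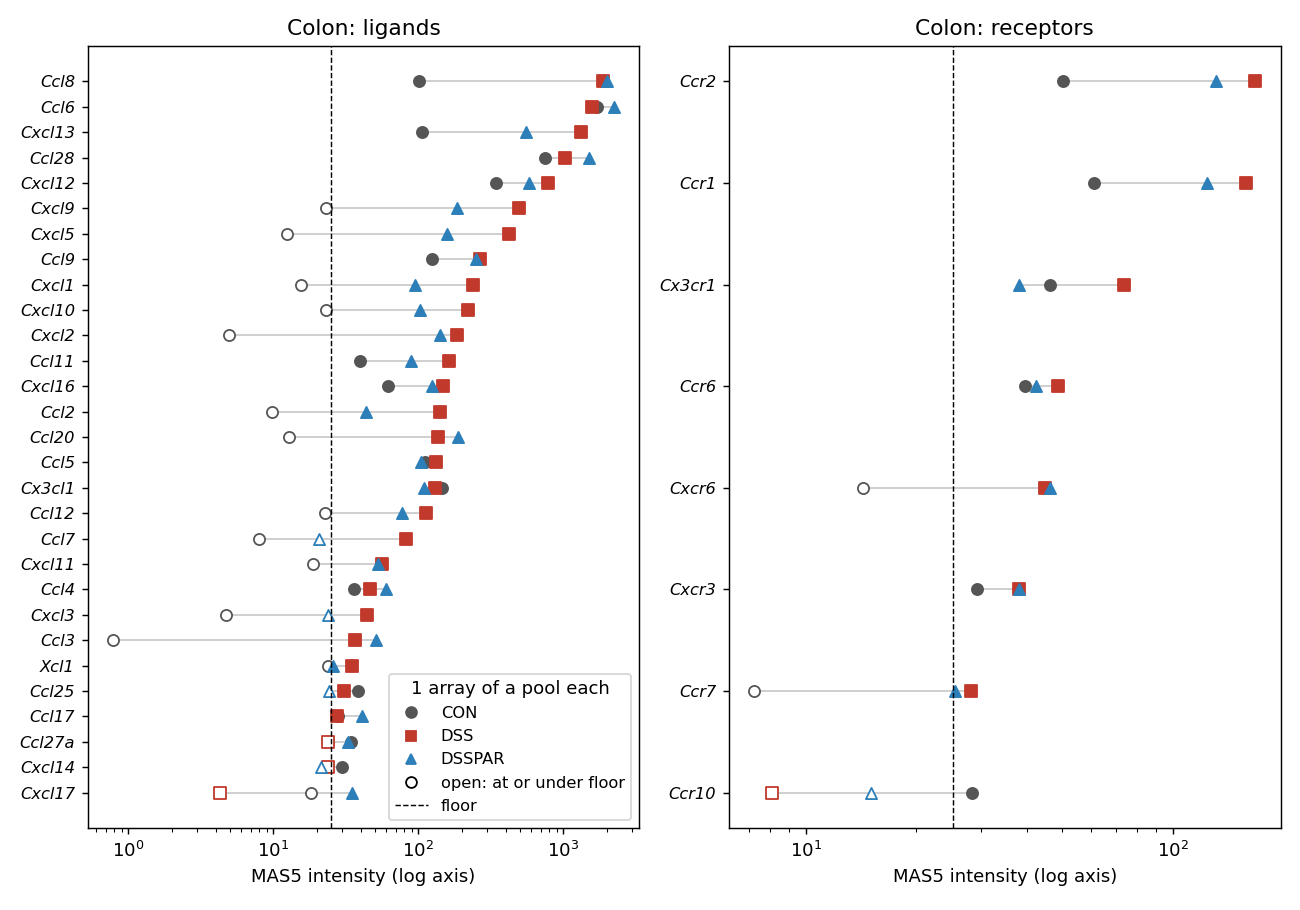
MAS5 intensity (log axis) of every chemokine ligand (left) and receptor (right) above the colon floor in at least 1 array, with 1 point per array for CON, DSS and DSSPAR; open points lie at or under the floor of 25.1 (dashed line). DSS lies right of CON for most ligands, among them Ccl8, Cxcl9, Cxcl5 and Cxcl13. DSSPAR lies between CON and DSS for Cxcl9, Cxcl5, Cxcl1, Cxcl10 and Cxcl13.

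The family sits mostly on a few chromosomes, and the higher members are given by chromosome as a description. On chromosome 5, 7 of 8 measured members were at least 2-fold higher in colon DSS, namely Cxcl5, Cxcl1, Cxcl2, Cxcl9, Cxcl10, Cxcl11 and Cxcl13, and the remaining one was Cxcl3. On chromosome 11, 7 of 13 were higher, namely Cxcl16, Ccl2, Ccl7, Ccl11, Ccl12, Ccl8 and Ccl9. On chromosome 9, which carries most receptors of the family, 2 of 4 measured members were higher, Ccr1 and Ccr2.

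Other genes of the chemokine pathway, a list of signalling proteins and atypical receptors, had smaller ratios. Of 21 measured in colon, 4 were at least 2-fold higher in DSS than in CON and none was lower, with a median log2 ratio of 0.38. Rac2, a GTPase of blood cells needed for directed migration, read 29.8 in CON, 98.0 in DSS and 72.2 in DSSPAR. Ackr1, an atypical receptor that carries chemokines across venular endothelium, read 58.7, 157.3 and 88.8. The Src family kinase gene Fgr read 20.5, 54.1 and 43.5, and the beta-arrestin gene Arrb2 read 39.7, 82.6 and 62.8. All 4 were highest in DSS.

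A list from the NF-kB and interferon gamma pathways, which induce chemokine transcription, held cytokines, transcription factors and feedback inhibitors. Of 15 measured in colon, 5 were at least 2-fold higher in DSS and none lower, with a median log2 ratio of 0.72. The feedback inhibitor gene Socs3 read 92.1, 1230.2 and 1025.0 in CON, DSS and DSSPAR. The cytokine gene Il1b read 54.2, 368.9 and 293.1, and Il6 read 0.312, 143.2 and 19.0, above the floor in DSS alone. The NF-kB subunit gene Rel read 16.1, 60.8 and 27.7.

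Between the DSS groups, ligands accounted for every colon member past 2-fold, and all of these were lower with parsley. Of 35 members measured in DSSPAR against DSS, 7 were at least 2-fold lower (20.0%), against 1.24% of all genes measured, and none was higher, against 0.392%. Centring each array on its median, which shifted the median log2 ratio of all genes to 0.18, gave 6 members lower and none higher, against 0.665% and 0.91% of all genes. The median log2 ratio of the members was -0.28, that of all genes -0.013, and with that centring the members' median was -0.10.

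The 7 members were Ccl7, Ccl2, Cxcl9, Cxcl5, Cxcl1, Cxcl13 and Cxcl10. By fold, Ccl7 was lower by at least 3.28-fold and Ccl2 by 3.25-fold. Cxcl9 was 2.68-fold, Cxcl5 2.65-fold, Cxcl1 2.51-fold, Cxcl13 2.41-fold and Cxcl10 2.14-fold lower. With median centring Cxcl10 fell short of 2-fold, at a log2 ratio of -0.90, and with the floor at the 75th percentile Ccl2 did, at -0.44. The set thus spanned neutrophil, monocyte, T cell and B cell attractants.

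Other ligands past 2-fold in DSS against CON were not lower with parsley by this margin. The contrasts share the DSS array. Nearest to it were Ccl11, 1.82-fold lower in DSSPAR, Ccl12, 1.46-fold lower, and Cxcl12, 1.36-fold lower. Ccl8 differed by 1.06-fold and was the higher in DSSPAR. Ccl20 was 1.39-fold higher in DSSPAR. Cxcl2 was 1.3-fold lower, Cxcl16 1.19-fold lower, and Cxcl11 and Ccl9 differed by 1.05-fold and 1.06-fold. Cxcl2 therefore stood apart by value from Cxcl1 and Cxcl5, although all 3 signal through Cxcr2. With 1 array each, a difference between these ratios could not be tested.

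No receptor passed 2-fold in this comparison. Ccr2 was 1.28-fold lower in DSSPAR, Ccr1 1.28-fold lower, Cxcr3 read 38.2 on both arrays, and Cx3cr1, the fractalkine receptor of resident macrophages, was 1.94-fold lower. Of 14 ligand and receptor pairs with both members measured, none had both members past 2-fold. Macrophage markers differed little, with 1 of 12 at least 2-fold lower, the chitinase-like gene Chil3 at 276.8 in DSS and 79.6 in DSSPAR. Of the NF-kB and interferon gamma pathway genes, 2 of 15 were at least 2-fold lower, Il6 and Rel.

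The colon pools also differed in exocrine pancreas genes and in vessel markers. Of 9 exocrine pancreas genes on the array, 7 were at least 2-fold higher in DSS than in CON and 7 were lower by that margin in DSSPAR against DSS. Cela1 went the other way, at 2554.2 in CON, 1627.5 in DSS and 2035.9 in DSSPAR. Clps read 150.4, 207.0 and 142.9 and did not reach 2-fold. The trypsin gene Prss2 read 581.1 in DSS and 14.2 in DSSPAR and was at least 23.2-fold higher in DSS than in CON, and the chymotrypsinogen gene Ctrb1 read 1.55, 468.4 and 7.03. Endothelial markers summed to 311.4, 554.5 and 322.9, with 3 of 6 at least 2-fold higher in DSS than in CON and 1 of 6, Plvap, lower by 2.49-fold in DSSPAR against DSS. The 5-prime control probe set for 18S ribosomal RNA read 6156.2, 4017.9 and 390.4. The part of these differences in the chemokine values was not tested.

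DSSPAR remained far from CON in colon by intensity. Of 35 members measured, 16 were at least 2-fold higher in DSSPAR than in CON (45.7%), against 3.51% of all genes, and none was lower, against 2.1%. The median log2 ratio was 0.89, and 0.027 over all genes. With arrays centred on their medians 20 members were higher and none lower, against 7.5% and 1.02% of all genes, whose median then lay at 0.30. By role, 14 of 27 ligands and 2 of 8 receptors passed 2-fold.

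In this comparison Ccl8 was 19.6-fold higher, Ccl20 at least 7.55-fold, Cxcl9 at least 7.34-fold, Cxcl5 at least 6.3-fold, Cxcl2 at least 5.65-fold and Cxcl13 5.2-fold higher than in CON. Ccl8, with the largest of these ratios, differed by 1.06-fold between the DSS groups. Ccr2 was 2.61-fold and Ccr1 2.04-fold higher. Ccr1 fell short of 2-fold with the mean over its probe sets, at a log2 ratio of 0.62. That mean is a lower bound, because the dimmer set had CON under the floor, at 5.05. Both receptors fell short with the floor at the 75th percentile, Ccr1 at 0.25 and Ccr2 at 0.33. Ccl28, a mucosal ligand of Ccr10, read 742.6 in CON, 1032.6 in DSS and 1499.5 in DSSPAR, 2.02-fold higher in DSSPAR than in CON, but 1 of its other 2 probe sets gave a log2 ratio of -0.02, and it fell short of 2-fold with quantile normalization (0.81). Ccr10 read 28.4, 8.1 and 15.0, above the floor in CON alone.

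The list of ligand and receptor pairs held 38, of which 30 had both partners among the members, linking 15 receptors and 29 ligands. Both partners were measured for 16 pairs in DSS against CON. In 5 of these both were at least 2-fold higher, namely Ccr1 with Ccl7 and Ccl9, and Ccr2 with Ccl2, Ccl7 and Ccl12. In another 5 only the ligand was, and in 3 only the receptor. For 7 more pairs the ligand was at least 2-fold higher while the receptor was not measured. These were Cxcr2 with Cxcl1, Cxcl2 and Cxcl5, Cxcr4 with Cxcl12, Cxcr5 with Cxcl13, Ccr3 with Ccl11, and Ccr8 with Ccl8. The pairs with both higher rest on 2 receptors. With the floor at the 75th percentile Ccr1 and Ccr2 lay at log2 ratios of 0.60 and 0.69, which leaves no pair with both past 2-fold. With the mean over probe sets the 3 pairs of Ccr2 were lost, at 0.78, a mean that takes in lower bounds. Pairs share partners, so they are not independent, and a receptor under the floor may still be present in few cells.

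**Figure D2:**
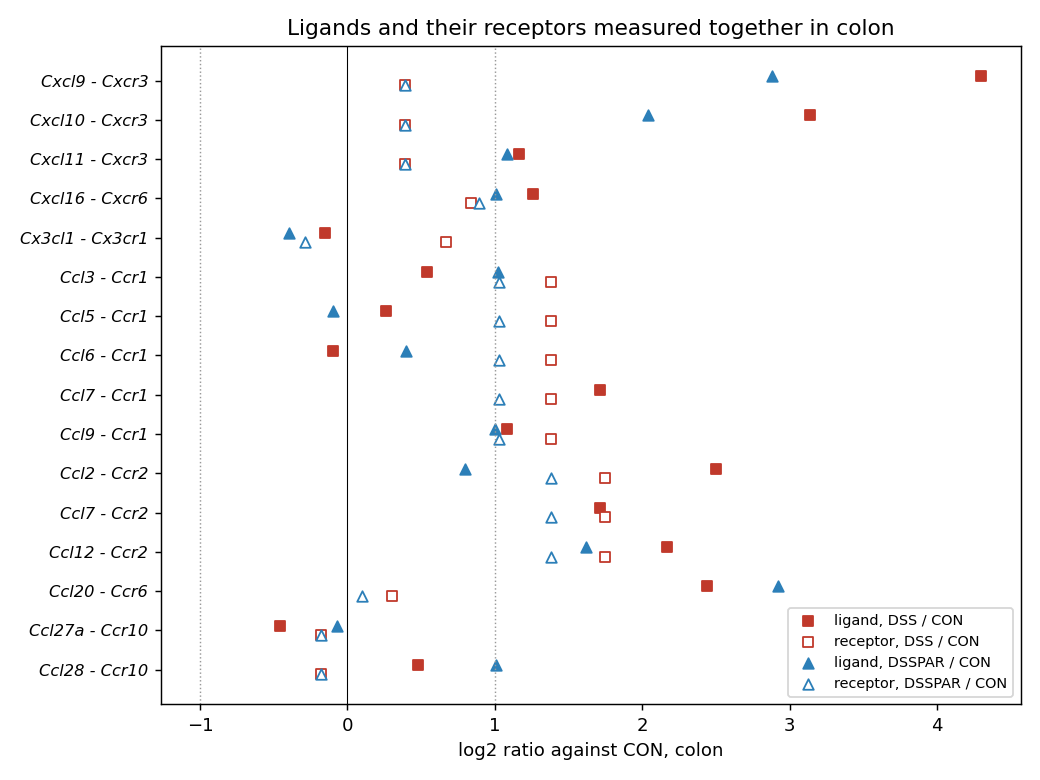
Log2 ratio against CON in colon for the 16 pairs with both partners measured in DSS against CON, with filled symbols for ligands, open symbols for receptors, squares for DSS and triangles for DSSPAR; dotted lines mark 2-fold, and ratios against a floored array are lower bounds. Only the Ccr1 and Ccr2 receptors pass the right-hand dotted line, whereas the Cxcr3 ligands Cxcl9 and Cxcl10 reach log2 ratios of 4.30 and 3.14 in DSS with the receptor at 0.39; no ligand triangle is drawn for Ccl7, which was under the floor in CON and in DSSPAR.

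In liver fewer members were above the floor, and fewer passed 2-fold, than in colon. Of 26 members measured in DSS against CON, 7 were at least 2-fold higher (26.9%), against 4.73% of all 13034 genes, and 1 was lower (3.85%), against 4.2%. The median log2 ratio of the members was 0.13 and that of all genes -0.018, and the members' median was 0.29 with arrays centred on their medians and -0.34 with no floor. Centring on medians gave 8 members higher and 1 lower, against 6.67% and 2.73% of all genes. All 6 of the called members with more than 1 measured probe set had those on the same side. RNA quality, gauged by 3-prime over 5-prime control probe sets, differed between the tissues. For actin the ratio was 3.55, 3.53 and 2.63 in liver CON, DSS and DSSPAR and 1.61, 1.3 and 1.69 in colon. For Gapdh it was 1.21, 1.54 and 1.07 in liver and 0.85, 0.7 and 0.75 in colon. The part of this in the chemokine values was not tested.

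Cxcl1, which hepatocytes are known to make in the acute phase response, differed widely in liver. It read 1829.3 in CON, 36091.7 in DSS and 18538.1 in DSSPAR, 19.7-fold higher in DSS than in CON. Its other 2 probe sets gave 12.6-fold and 9.63-fold. The remaining ligands of Cxcr2 in the family were under the liver floor on all arrays, at 39.5 to 79.5 for Cxcl2 and Cxcl3 and 5.8 to 16.3 for Cxcl5, as was Cxcr2, at 18.6 to 24.3. Ppbp, a platelet-derived ligand of Cxcr2 whose symbol lies outside the family's naming, read 149.4, 65.4 and 53.0, above the floor in CON alone.

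Cxcl14, a ligand whose receptor is not settled, read 31.8 in CON, 1203.7 in DSS and 1043.7 in DSSPAR, at least 12.5-fold higher in DSS than in CON. This is a bound, so Cxcl14 and Cxcl1 cannot be ranked. Its second probe set read 123.0, 264.4 and 184.7, a 2.15-fold difference, so the size depended on the probe set while the side did not. Cxcl13 read 285.6, 1916.1 and 839.2, 6.71-fold higher in DSS, and 8.45-fold by its second probe set. Its receptor Cxcr5 was above the floor in CON alone, at 121.2, 10.2 and 7.24. B cell markers did not pass 2-fold in liver, with 3 of 6 measured. All 6 together summed to 445.4, 477.7 and 446.3.

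The CC ligand Ccl6, made by macrophages and myeloid cells, read 729.1 in CON, 2533.9 in DSS and 1807.3 in DSSPAR, 3.48-fold higher in DSS. Ccl9, another Ccr1 ligand, read 7737.9, 10303.9 and 7012.1 and differed by 1.33-fold. Their receptor Ccr1 was above the floor in DSSPAR alone, at 100.9. Kupffer cell markers, which mark the resident macrophages of liver, were higher for 3 of 5, with a summed intensity of 14987.7 in CON, 34024.8 in DSS and 25266.6 in DSSPAR. Of these the scavenger receptor gene Marco read 111.7, 1158.0 and 966.5. Of 11 measured markers of macrophages and monocytes, 5 passed 2-fold upward in DSS, and the list summed to 18679.5, 33641.2 and 31612.7. Their part in the Ccl6 value was not tested.

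Ccl2 and Ccr2 formed the only pair with both partners at least 2-fold higher in liver DSS, among 7 pairs with both measured. Ccl2 read 26.4 in CON, 206.4 in DSS and 64.4 in DSSPAR, at least 2.14-fold higher in DSS. Ccr2 read 225.6, 582.2 and 191.8, 2.58-fold higher. Both were highest in DSS. The 3 dimmer probe sets of Ccr2 gave log2 ratios of 0.09 to 0.65, where 0.65 is a lower bound with CON at 36.5. Over the mean of the 4 the ratio was 0.63, short of 2-fold and likewise a lower bound. Cxcr6, a receptor of natural killer T cells and tissue-resident lymphocytes of liver, read 101.2, 265.2 and 203.2, 2.62-fold higher in DSS with CON close to the floor. Its ligand Cxcl16 read 459.4, 508.4 and 413.2 and differed by 1.11-fold.

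Neutrophil markers were higher in liver too. Of 6 measured, 3 were at least 2-fold higher in DSS, with a summed intensity of 1375.3 in CON, 23748.2 in DSS and 8837.3 in DSSPAR. S100a8 read 366.5, 14340.5 and 5428.9, and the granule gene Ngp read 149.3, 411.8 and 208.6. S100a8 and S100a9 made up most of the sum, and other markers were ordered otherwise. Camp read 12.6, 29.0 and 149.5 and Csf3r 10.4, 12.8 and 110.0, highest in DSSPAR, whereas Elane read 190.3, 265.1 and 31.2, lowest there. Camp, Csf3r and, above, Ppbp were named after their values were seen. The part of these cells in the Cxcl1 value was not tested.

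Cxcl9 was the single member at least 2-fold lower in liver DSS. It read 2036.4 in CON, 666.9 in DSS and 967.3 in DSSPAR, 3.05-fold lower in DSS than in CON, and its second probe set gave 2.4-fold lower. The other interferon-inducible ligands did not share this, with Cxcl10 at 288.8, 359.8 and 190.7 and Cxcl11 at 244.3, 431.3 and 419.0. Their receptor Cxcr3 read 188.5, 83.3 and 89.1, at least 1.95-fold lower in DSS. The 7 T cell markers on the array summed to 544.8, 364.9 and 420.5. Only 3 were measured, none past 2-fold, and these 3 did not all go one way. Cd3d, a chain of the T cell receptor complex, read 160.2, 14.4 and 10.9, Cd8a read 134.0, 39.9 and 84.3, and Cd2 read 87.4, 133.5 and 118.2, higher in DSS. Their part in the Cxcl9 and Cxcr3 values was not tested.

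The 18 remaining measured members in liver DSS against CON ranged from log2 ratios of -0.96 for Cxcr3 to 0.99 for Cxcl12. Cxcl12 read 4296.4, 8519.2 and 7531.1 in CON, DSS and DSSPAR and lay just short of 2-fold at 1.98-fold in DSS, and its second measured probe set gave 1.17-fold. Ccl8 read 212.5, 160.3 and 114.8, a 1.33-fold lower value in DSS. Liver never showed 13 ligands above the floor, among them Cxcl2, Cxcl5, Ccl7, Ccl11, Ccl12 and Ccl20, all of which were at least 2-fold higher in colon DSS. The 9 receptors never above it were Ccr10, Ccr3, Ccr4, Ccr7, Ccr8, Cx3cr1, Cxcr2, Cxcr4 and Xcr1.

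**Figure D3:**
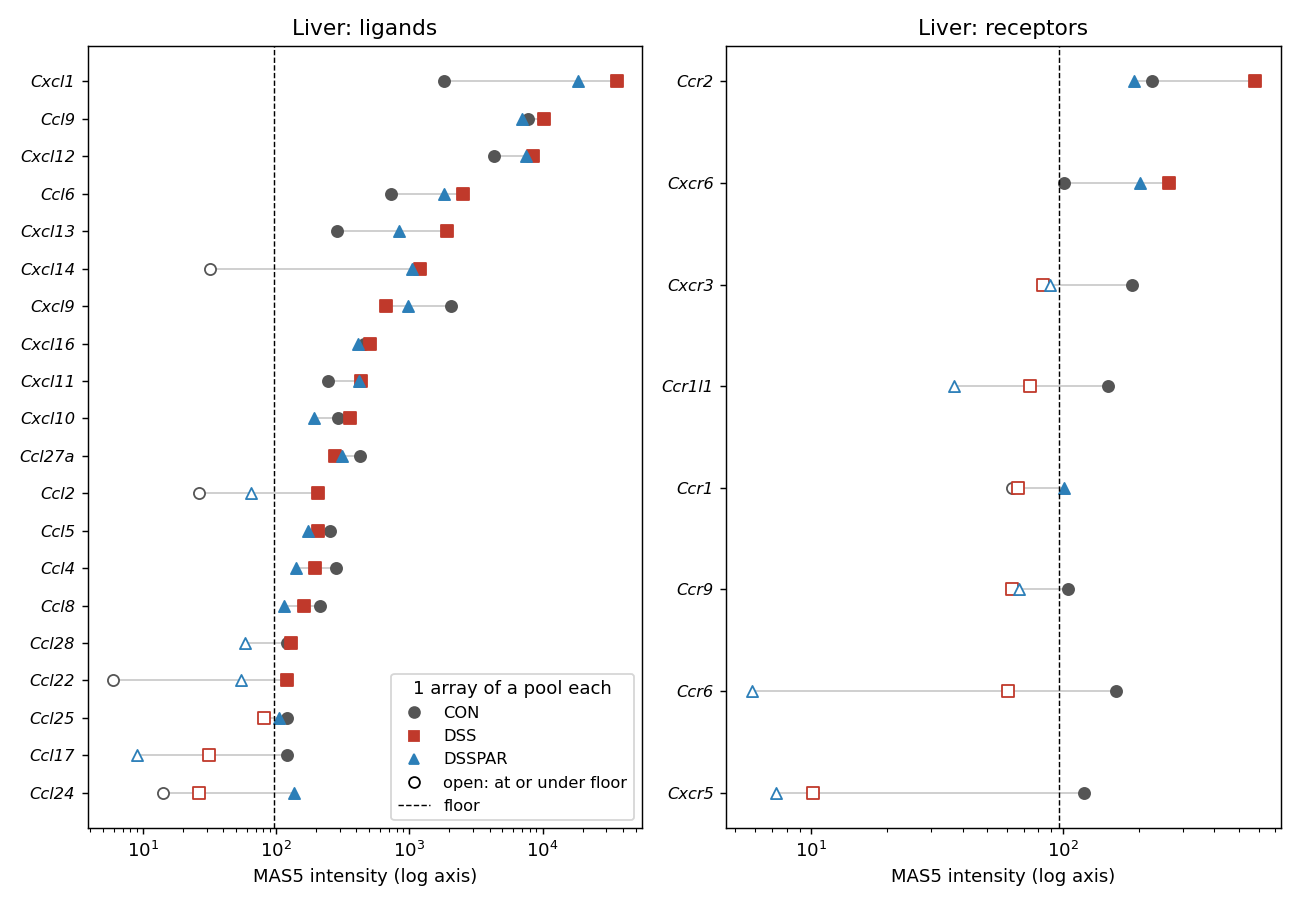
MAS5 intensity (log axis) of every chemokine ligand (left) and receptor (right) above the liver floor in at least 1 array, with 1 point per array for CON, DSS and DSSPAR; open points lie at or under the floor of 96.6 (dashed line). DSS lies far right of CON for Cxcl1, Cxcl14, Cxcl13 and Ccl6 and left of it for Cxcl9, and among receptors Ccr2 and Cxcr6 are the 2 with DSS above the floor.

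Between the DSS groups in liver, 22 members were measured and 3 were at least 2-fold lower with parsley (13.6%), against 4.23% of all genes. None was higher, against 2.8%. With arrays centred on medians 3 were lower and none higher, against 2.63% and 5.34% of all genes. The median log2 ratio was -0.35 for members and -0.019 for all genes, and the members' median was -0.18 with that centring. The 3 members were Ccr2, 3.04-fold lower, Cxcl13, 2.28-fold lower, and Ccl2, at least 2.14-fold lower. Ccl2 with Ccr2 was the only pair of 5 with both partners past 2-fold. Ccr2 in DSSPAR stood 1.18-fold under CON. With the floor at the 75th percentile Ccr2 fell short of 2-fold, at -0.67, as it did with the mean over its probe sets, at -0.88. That mean takes in probe sets with DSSPAR under the floor, so the fold is a lower bound.

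In liver DSSPAR, Cxcl1 was lower than in DSS by 1.95-fold and Cxcl10 by 1.89-fold, both short of 2-fold. Hepatocyte markers other than Tat were lower too. Over all 7 the median log2 ratio was -0.61, with none past 2-fold. The albumin gene Alb was 1.87-fold and the transthyretin gene Ttr 1.92-fold lower, whereas Tat was 1.45-fold higher. The part of hepatocyte markers in the Cxcl1 value was not tested. Neutrophil markers were at least 2-fold lower for 3 of 8 and macrophage and monocyte markers for 1 of 11. Cxcl14, Ccl6 and Cxcr6 were 1.15-fold, 1.4-fold and 1.31-fold lower. The second probe set of Ccl6 gave 3-fold lower, so its ratio depended on the probe set.

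Against CON, DSSPAR liver had 5 of 26 measured members at least 2-fold higher (19.2%), against 3.26% of all genes, and 1 lower (3.85%), against 3.45%. The median log2 ratio was -0.22 for members and -0.04 for all genes, but the members' median turned to 0.09 with arrays centred on their medians and to 0.50 with the floor at the 75th percentile. With median centring 7 members were higher and 0 lower, against 7.94% and 1.48% of all genes, whose median was then 0.25. The higher members were Cxcl14, at least 10.8-fold, Cxcl1, 10.1-fold, Cxcl13, 2.94-fold, Ccl6, 2.48-fold, and Cxcr6, 2.01-fold. Cxcl9 was 2.11-fold lower, and it fell short of 2-fold with median centring (-0.77) and with the mean over probe sets (-0.80). Ccl4 read 280.0, 195.9 and 140.5 in CON, DSS and DSSPAR, 1.99-fold lower in DSSPAR than in CON and just short of the threshold. Of 9 pairs with both partners measured, none had both past 2-fold.

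Of the 19 other chemokine pathway genes measured in liver DSS against CON, 3 were higher past 2-fold and none lower, with a median log2 ratio of 0.21. The regulators of G protein signalling Rgs2 and Rgs1, which shorten receptor signals, read 192.5, 1069.0 and 529.4 and 223.2, 578.6 and 263.3 in CON, DSS and DSSPAR. Prex1, an exchange factor for Rac, read 160.4, 353.5 and 175.3. In DSSPAR against DSS, which shares the DSS array, 3 of 18 were lower past 2-fold, Rgs1 by 2.2-fold and Rgs2 and Prex1 by 2.02-fold each. In colon Rgs2 read 395.1, 375.1 and 332.6, and Rgs1 differed by 1.11-fold between DSS and CON.

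Of 14 NF-kB and interferon gamma pathway genes measured in liver, 3 were at least 2-fold higher in DSS and none lower. Nfkbiz, a nuclear cofactor of NF-kB, read 913.7, 5361.1 and 2302.0. The NF-kB inhibitor gene Tnfaip3 read 121.0, 439.6 and 207.5, and Socs3 read 3132.5, 10214.9 and 6790.8. All 3 were highest in DSS, with DSSPAR between DSS and CON. Il1b read 327.9, 454.3 and 446.5 and did not reach 2-fold. Tnf and Ifng were under the floor on every liver array, and Il6 was above it in DSS alone, at 99.8.

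The tissues were scaled apart, so only ratios within a tissue were set side by side. Of the members at least 2-fold higher in DSS than in CON, 4 were shared, namely Ccl2, Ccr2, Cxcl1 and Cxcl13, which is 22.2% of the 18 in colon and 57.1% of the 7 in liver. Over all genes, 119 were shared, 19.2% of the 619 in colon and 19.3% of the 616 in liver. Of those past 2-fold downward in DSSPAR against DSS, Ccl2 and Cxcl13 were shared, 28.6% of the 7 in colon and 66.7% of the 3 in liver, and over all genes 9 were, 6.16% of 146 and 1.71% of 525. With so few members, nothing particular to the family is read from these shares. Among 22 members measured in both tissues, Cxcl14 had a log2 ratio of -0.25 in colon and 3.64 in liver, Ccl6 -0.10 and 1.80, Ccl8 4.21 and -0.41, and Cxcl9 4.30 and -1.61. The Cxcl14 values come from different probe sets, the brighter in each tissue: the set used in liver gave 0.26 in colon, and the set used in colon gave 1.10 in liver. None of these differences between tissues could be tested.

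**Figure D4:**
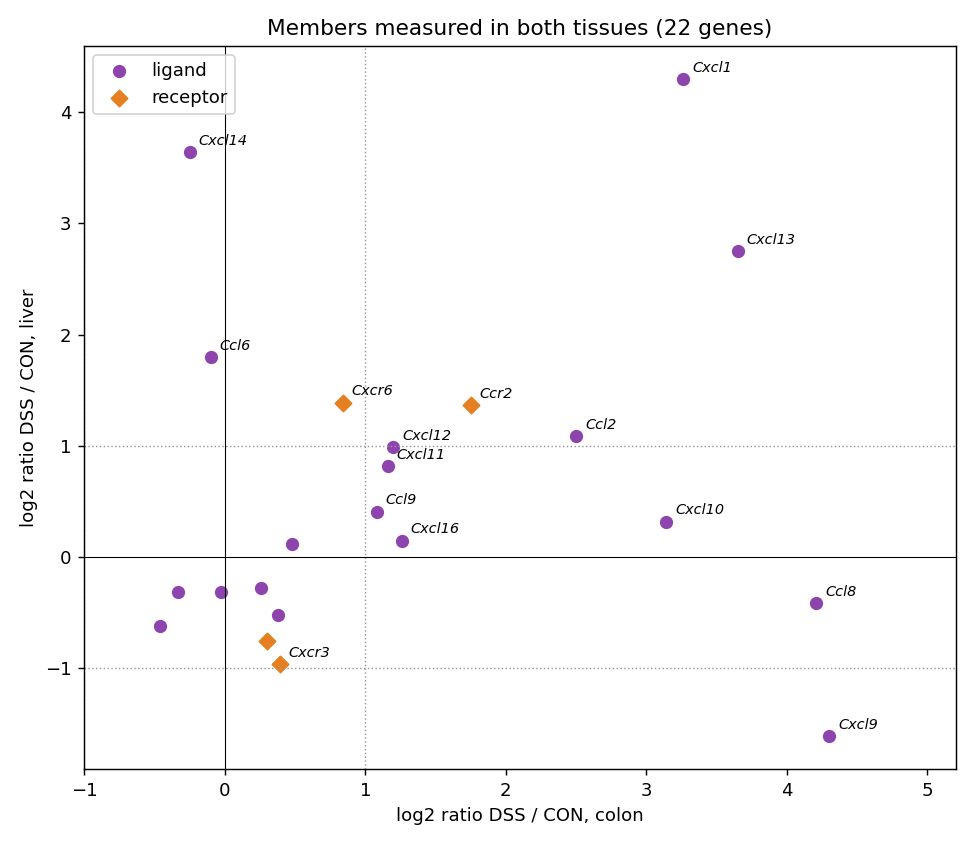
Log2 ratio of DSS over CON in liver (vertical) against colon (horizontal) for the 22 members measured in both tissues, with circles for ligands and diamonds for receptors and dotted lines at 2-fold; ratios against a floored array are bounds. Cxcl1, Cxcl13, Ccl2 and Ccr2 lie in the upper right, Cxcl14 and Ccl6 are past 2-fold in liver but not in colon, and Cxcl9 and Ccl8 are high in colon and below 0 in liver.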

How the data were processed

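The 6 arrays were grouped by tissue and group by the labels. What the authors deposited are linear-scale intensities, 1 per probe set and array, made by the authors with MAS5, per the submitters' processing notes, whose version and target level are not given in the sources read. Colon and liver arrays had been scaled to different levels and were analysed apart. Gene symbols of probe sets came from GEO's platform annotation, and promoter sequences came from RefSeq (GRCm38.p6). Of 45101 probe sets, 932 carried several symbols and 9211 were not listed. A gene was represented by its probe set of highest mean log2 intensity in the tissue. The floor was the 50th percentile of a tissue's 3 arrays, and the threshold 2-fold. With 1 array per group no test was possible. For each other gene list, up to 4 measured members with the largest ratios were named, and for the family, members past 2-fold with their receptors. The family, pairs, motifs and lists were chosen with earlier results of these data known. Counting was tested on simulated data. Alternatives were other floors, centrings, quantile normalization, the mean over probe sets and leaving out probe sets of shared type. Python 3.11.15, NumPy 2.4.6, pandas 2.3.3 and matplotlib 3.10.9 were used.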

Additional observations from a re-analysis of the deposited data

Results flagged for a closer look

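Cxcl9 went opposite ways in the tissues. Its log2 ratio of DSS over CON was 4.30 in colon and -1.61 in liver, a gap of 5.91, and that of DSSPAR over CON was 2.88 and -1.07, a gap of 3.95. Both gaps are lower bounds, because CON was under the floor in colon, and both use the same CON arrays. Each was picked out because the single array of each group was past 2-fold one way in colon and the opposite way in liver. With 1 array per group the difference was not tested. Its second probe set lay on the same sides, with log2 ratios of 1.41 and -1.26 for DSS over CON and 0.46 and -0.53 for DSSPAR over CON. The colon values of this set, 1.41 and 0.46, are lower bounds, with CON at 7.2.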

How the results depend on the processing

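None of the 58 member ratios past 2-fold changed sign under any of the alternatives, 391 values in all. Of those still measured, 18 of 45 fell short of 2-fold when the floor was raised to the 75th percentile, 6 of 58 with the mean over probe sets, 2 with arrays centred on their medians, and 1 each with quantile normalization and with centring on probe sets above the floor, an alternative chosen after seeing the data. With the higher floor, 8 members rather than 18 were at least 2-fold higher in colon DSS against CON, beside 3.68% of all genes. In colon DSSPAR against CON 3 were (2.85% of all genes), and in liver DSS against CON 4 were (3.71%). In liver DSSPAR against DSS 1 was lower (3.1%). The number of members still measured at the higher floor is not given, so these counts are not shares. With no floor, all 50 members were counted. In colon DSS against CON 3 were at least 2-fold lower, against 9.45% of all genes. In colon DSSPAR against DSS 3 were higher, against 7.12%. In liver without a floor, 11 were higher and 12 lower in DSS against CON, against 11.4% and 15.1% of all genes. In DSSPAR against DSS 5 and 13 were, against 10.6% and 14.5%. In DSSPAR against CON 12 and 13 were, against 8.74% and 16.4%. The count of 1 member lower in liver DSSPAR against CON became 0 with median centring or the mean over probe sets. It became 2 with centring on probe sets above the floor. The shares of all genes lower were 1.48%, 2.8% and 4.1% in that order. A higher floor raises the lower value of each ratio, and without one, values near background enter as they stand. No paired analysis was possible because each group had 1 array per tissue and the labels carry no replicate numbers. Signal over background limits the receptors most: 9 of 17 were under the floor on every array in each tissue.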

Other observations

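Several members had ratios that rested on 1 array above the floor. In liver, Ccl24, an eosinophil attractant, read 14.0 in CON, 26.2 in DSS and 135.5 in DSSPAR. Ccr6 read 162.8, 60.6 and 5.8 there, Ccr1l1 150.6, 74.0 and 37.0, and Ccl17, a ligand of Ccr4, 119.4, 31.2 and 8.96, each above the floor in CON alone. As 12 of 44 olfactory receptor probe sets were also above the floor in the CON liver array, against 10 in DSS and 7 in DSSPAR, these values lie in a range where genes not known to be used in liver are found too.

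The atypical receptors, which take up chemokines without signalling through G proteins, differed among themselves. In colon Ackr3, which binds Cxcl12, read 153.5 in CON, 199.1 in DSS and 136.6 in DSSPAR, and Ackr2, a scavenger of inflammatory CC ligands, 20.8, 29.1 and 32.8. Ackr4 read 35.0, 23.9 and 22.8. None of these 3 passed 2-fold in colon, and they were chosen for mention after their values were seen. In liver Ackr2 read 196.6, 133.7 and 156.3, and Ackr3 stayed under the floor.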
